A study of Homo sapiens with 6 samples.

Results

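S100 genes encode a family of small proteins that bind calcium. The 10 given here, S100A2, S100A3, S100A4, S100A6, S100A9, S100A11, S100A13, S100A14, S100A16 and S100P, were taken by gene symbol from a table of 58735 genes, and all 10 symbols were matched. RNA of AsPC-1 cells, a human pancreatic cancer line in long use whose genotype is labelled WT, was sequenced in 6 libraries to find genes that differ when MMP28, a secreted matrix metalloproteinase, is overexpressed. In the 3 Vector libraries the cells had received an empty lentivirus, and in the 3 OE-MMP28 libraries a lentivirus with MMP28. Both groups thus carried a lentivirus, and per the methods stably infected cells were selected with puromycin, without a statement on whether they were a pool or a clone. The methods give triplicate samples per group, and state in general that experiments on cells in culture were repeated independently. They do not say whether the sequenced triplicates were separate cultures, so p-values measure only the spread between these samples, which may be technical.

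S100 proteins carry a pair of EF-hand loops, the helix-loop-helix motif that holds a calcium ion, and most work as dimers. Calcium binding opens a hydrophobic face that takes up target proteins such as annexins, myosin and ezrin inside the cell. Some are also released and act on receptors such as RAGE (encoded by AGER) and TLR4. In the pancreas, S100P and several S100A proteins are known from ductal cancers.

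Total counts per library ranged from 13633249 to 16691458. Levels are given in FPKM, the fragments per kilobase of a gene's exons scaled to the size of the library, and in replicate order. MMP28 was measured at 5.17, 9.11 and 8.43 FPKM in the Vector libraries and at 13.1, 13.9 and 15.1 FPKM in the OE-MMP28 libraries. Its level was higher in every OE-MMP28 library, with a log2 fold change of 0.90 (SE 0.19, adjusted p = 0.00226, edgeR). Of 20 alternative fits, it lost its call only in limma without a filter (0.84, adjusted p = 0.0903). The value lay under the study's limit of 1 for an absolute log2 fold change, and passed it only without Vector replicate 2 (1.05). All 6 ductal epithelial markers were detected, and their summed level was 2575 to 3518 FPKM in the Vector group and 3566 to 4364 FPKM in the OE-MMP28 group. Of these, KRT19 (log2 fold change 0.71) and MUC1 (2.16) rose, and the other 4 did not pass the test, EPCAM with -0.11. The summed markers of squamous or basal cells, fibroblasts, endothelial cells and acinar cells reached at most 0.293 FPKM in any library, and KRT5, PRSS1 and CPA1 had a count of 0 in all 6. The 6 myeloid markers summed to 164 to 186 FPKM in the Vector group and 106 to 146 FPKM in the OE-MMP28 group, nearly all of it LYZ, which fell (-0.45, adjusted p = 0.0376, edgeR), while PTPRC had at most 1 count in a library. Of the endothelial markers, PECAM1 was called higher (adjusted p = 0.00361) at 0 to 30 counts per library, VWF did not pass the test and CDH5 had at most 1 count. The part of these differences in the S100 values was not tested, and in bulk RNA fewer cells of a type and less RNA per cell cannot be told apart.

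Of the 10 genes, 9 lie on chromosome 1, from 152032506 (S100A11) to 153631360 (S100A13) on GRCh38, all but S100A9 on its minus strand, and S100P lies on the plus strand of chromosome 4, from 6693069 to 6697170. The DNA upstream of a RefSeq start site is shown for S100A2, S100A3 and S100A16. They were chosen because S100A2 and S100A16 rose and the neighbouring S100A3 did not pass the test. The S100A2 stretch lies within the span of S100A2 itself (to 153567890), and the S100A3 stretch within that of S100A4 (to 153550136). These stretches are from RefSeq (GRCh38.p14), read 5′ to 3′ on the minus strand, and end before the bases that the annotation places in an untranslated region of the gene. Capitals mark TGANTCA, the AP-1 motif, searched on both strands.
S100A2, chr1:153565866-153566094: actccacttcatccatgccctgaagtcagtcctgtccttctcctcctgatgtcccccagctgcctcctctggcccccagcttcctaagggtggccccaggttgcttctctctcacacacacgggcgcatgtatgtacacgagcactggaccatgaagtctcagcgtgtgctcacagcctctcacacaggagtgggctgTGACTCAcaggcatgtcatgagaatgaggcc
S100A3, chr1:153549373-153549508: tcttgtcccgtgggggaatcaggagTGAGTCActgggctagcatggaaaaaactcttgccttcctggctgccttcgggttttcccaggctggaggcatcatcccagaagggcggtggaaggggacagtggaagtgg
S100A16, chr1:153613138-153613387: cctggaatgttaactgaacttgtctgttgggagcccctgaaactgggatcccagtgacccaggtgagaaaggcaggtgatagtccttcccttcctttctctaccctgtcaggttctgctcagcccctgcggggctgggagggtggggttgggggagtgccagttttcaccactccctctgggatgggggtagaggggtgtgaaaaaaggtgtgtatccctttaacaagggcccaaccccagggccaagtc
The motif stood 52 bases before the start site of S100A2 and 225 bases before that of S100A3, and these 2 were the only first windows of 250 bases among the 10 genes that held it. Of all 35116 RefSeq windows of that length, 6.57% held it. Among the first windows, TATAAA was found 28 bases before the start site of S100P, 31 before that of S100A4 and 29 before that of S100A9. Of all windows 10.7% held it. It also stood 29 bases before the start site of the second S100A13 window. None of the 10 first windows held the CRE motif TGACGTCA (1.65% of all windows), 5 held the Sp1 motif GGGCGG (42.6%) and 8 the E-box CANNTG (61.8%). The first windows of S100A6 and S100P lay wholly in bases that the annotation places in an untranslated region of the gene. The start site of the first S100A13 window lay 3001 bases from the nearest annotated start of that gene. A match describes the letters only, and of the genes with the AP-1 motif S100A2 rose and S100A3 did not pass the test.

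The S100 genes covered a wide range of levels in both groups, as seen in the plot of FPKM by library. S100A4, S100A11 and S100A6 together took 92.4% ± 1.17 (SD, n = 3, as for all means below) of the summed FPKM of the 10 genes in the Vector group and 91.5% ± 0.449 in the OE-MMP28 group. In the Vector group the order of mean FPKM was S100A4, S100A11, S100A6, S100A16, S100A14, S100A13, S100P, S100A3 and S100A2, with S100A9 last. The ranges of S100A11 and S100A6 overlapped, as did those of S100A3 and S100A2, and every other gene lay clear of the next. S100A14 (lowest 14.65 FPKM) lay only just above S100A13 (highest 14.58 FPKM). In the OE-MMP28 group S100A13 and S100A14 changed places with overlapping ranges, and S100A2 stood above S100A3 and S100P, whose ranges overlapped.

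**Figure D1:**
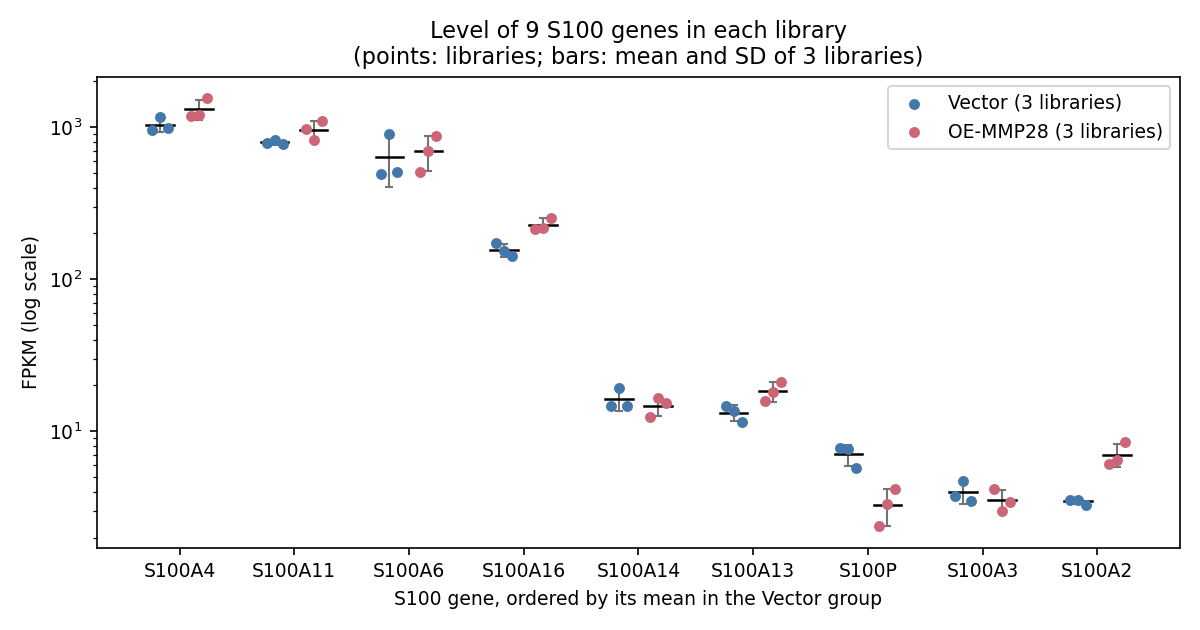
FPKM on a log axis of 9 S100 genes in each library (points), with the mean and SD of the 3 Vector and the 3 OE-MMP28 libraries (bars). S100A2, S100A16, S100A13 and S100A4 lie higher in every OE-MMP28 library than in any Vector library, S100P lies lower, and 1 Vector library stands apart at 897 FPKM for S100A6.

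Of the 9 genes that passed the filter on low counts, S100A2, S100A16 and S100A13 rose in OE-MMP28 cells, S100P fell, and 5 did not pass the test (edgeR, adjusted p under 0.05 over 15319 genes). Over all genes tested, 23.4% were called, 11.7% higher and 11.6% lower. The median log2 fold change of the 9 genes was 0.29, beside 0.014 over all genes. The genes were chosen with earlier results of these data known, so their calls and median are not independent of those results. The FPKM values of the groups did not overlap for S100A2, S100A4, S100A13, S100A16 and S100P, that is for 5 of 9. Of all genes tested, 38.1% had such groups, with OE-MMP28 above in 19% and below in 19.1%. At the study's thresholds in the edgeR fit (unadjusted p under 0.05, absolute log2 fold change over 1), S100A2 was higher and S100P lower. There 3.45% of all genes tested were called higher and 5.05% lower, and the study itself reported fewer genes at these thresholds. S100A2 and S100P both lay near the limit of 1 on the log2 scale. In limma on log2(FPKM + 1), the tool that the study names, S100A2 was at 0.84 and S100P at -0.92, short of it. S100A2 also fell short with upper-quartile scaling and with limma on log2(FPKM + 0.1) (0.99 each), with the gene length offset (0.96), with the 5 Mb local median (0.98) and without OE-MMP28 replicate 3 (0.88), and S100P without OE-MMP28 replicate 1 (-0.90).

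S100A2, a calcium sensor of basal and squamous epithelia that is known as a target of p53, showed the largest rise among these genes. Vector libraries gave 3.55, 3.54 and 3.29 FPKM, whereas OE-MMP28 libraries gave 6.13, 6.52 and 8.46 FPKM. The Vector values were close together, and the lowest OE-MMP28 value stood well above them. The mean was 3.46 ± 0.147 FPKM in the Vector group and 7.04 ± 1.25 FPKM in the OE-MMP28 group, a log2 fold change of 1.04 (SE 0.22, adjusted p = 0.00201, edgeR). It rested on 75 to 223 counts per library, and it kept its call in all 20 alternative fits, at 0.84 to 1.12. The gene lies on chromosome 1, from 153561108 to 153567890. The squamous or basal markers summed to at most 0.212 FPKM in any library.

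S100P, first found in placenta and known as a ligand of RAGE that also binds ezrin, was the one gene that fell. Its level was 7.72, 7.63 and 5.78 FPKM in the Vector libraries and 2.37, 3.35 and 4.18 FPKM in the OE-MMP28 libraries. All OE-MMP28 values were below the lowest Vector value. The mean was 7.04 ± 1.09 FPKM in the Vector group and 3.30 ± 0.905 FPKM in the OE-MMP28 group, a log2 fold change of -1.08 (SE 0.25, adjusted p = 0.00433, edgeR), from 48 to 151 counts per library. The call was lost in 1 of 20 alternative fits, limma without a filter on low values, at -0.92 and an adjusted p of 0.0716.

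S100A16, a widely expressed member that is regulated by calcium only weakly, was the most abundant of the genes that changed. Its values of 172, 153 and 142 FPKM in the Vector libraries stood against 214, 217 and 254 FPKM in the OE-MMP28 libraries. The groups did not overlap, and the gap between them was wider than the spread within the Vector group. The mean went from 156 ± 15.03 to 228 ± 22.3 FPKM, a log2 fold change of 0.56 (SE 0.15, adjusted p = 0.00825, edgeR). The call was lost without Vector replicate 3 (0.50, adjusted p = 0.0672) and in limma without a filter (0.55, adjusted p = 0.0831).

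S100A13, which takes part in the release of FGF1 and IL1A, proteins without the usual secretion signal, rose by a smaller amount. It was measured at 14.6, 13.7 and 11.5 FPKM in the Vector libraries and at 15.7, 18.2 and 21.2 FPKM in the OE-MMP28 libraries. The lowest OE-MMP28 value stood just above the highest Vector value. The log2 fold change was 0.49 (SE 0.17, adjusted p = 0.0441, edgeR), and 14 of 20 alternative fits lost the call. Without Vector replicate 2 the adjusted p was 0.0587, without Vector replicate 3 it was 0.219, without OE-MMP28 replicate 2 it was 0.140, and without OE-MMP28 replicate 3 it was 0.172. Its exons share 24.2% of their length with AL162258.1, a gene of the same strand with 0 to 5 counts per library, and 10.6% with S100A1 on the opposite strand, with 24 to 76 counts, so reads in the shared parts cannot be told apart.

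**Figure D2:**
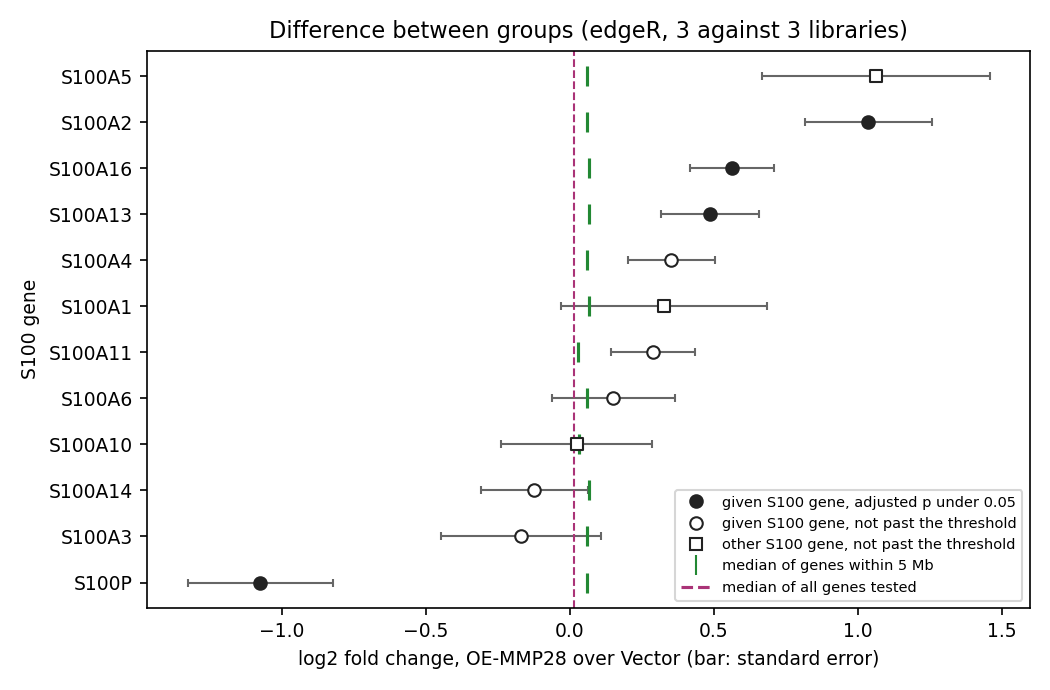
Log2 fold change of OE-MMP28 over Vector with its standard error for 9 given S100 genes (circles, filled where the adjusted p is under 0.05) and 3 other S100 genes (squares). The dashed line marks the median of all genes tested at 0.014 and each short bar the median of genes within 5 Mb. S100A2 at 1.04 and S100P at -1.08 lie farthest from both among the given genes.

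The abundant S100A4, S100A6 and S100A11 did not pass the test. S100A4, which binds nonmuscle myosin and is known for its part in cell motility and metastasis, was measured at 953, 1170.3 and 987 FPKM in the Vector libraries and at 1188.5, 1205 and 1544 FPKM in the OE-MMP28 libraries. The groups did not overlap in FPKM, but Vector replicate 2 lay just under the lowest OE-MMP28 value, that of replicate 1. Mitochondrial genes took 14.5% of the counts in Vector replicate 2 and 11.5% in OE-MMP28 replicate 1. Overlap of single genes outside the mitochondrial genome was not examined. The log2 fold change of S100A4 was 0.35 (SE 0.15, adjusted p = 0.0996, edgeR), which passed the threshold without Vector replicate 2 (0.45, adjusted p = 0.0432). S100A11, a partner of ANXA1, gave 779, 822 and 776 FPKM in the Vector libraries and 967, 821 and 1096 FPKM in the OE-MMP28 libraries, with OE-MMP28 replicate 2 within the Vector range. Its log2 fold change was 0.29 (SE 0.15, adjusted p = 0.158).

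S100A6, also called calcyclin, binds annexins and the ubiquitin ligase component encoded by CACYBP. Its Vector values of 493, 897 and 504 FPKM were split by replicate 2, and the OE-MMP28 values were 509.6, 697 and 875 FPKM. The highest value of all lay in the Vector group, so the groups overlapped over most of their range. The log2 fold change was 0.15 (SE 0.21, adjusted p = 0.651, edgeR). Its size and sign rested on single libraries, going to 0.49 (adjusted p = 0.0481) without Vector replicate 2 and to -0.054 (adjusted p = 0.906) without OE-MMP28 replicate 3. BX470102.1 on the opposite strand shares 2.37% of the exon length and had 31 to 103 counts per library.

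S100A10 was high in the same Vector library. It does not respond to calcium and forms a complex with ANXA2, a protein that the study also examined. Its level was 542, 1636 and 662 FPKM in the Vector libraries and 999.7, 877 and 989.6 FPKM in the OE-MMP28 libraries. The Vector group thus held both the lowest and the highest value, with a log2 fold change of 0.024 (SE 0.26, adjusted p = 0.960, edgeR). The value was 0.68 without Vector replicate 2 (adjusted p = 0.00196), -0.25 without Vector replicate 1 and -0.18 without Vector replicate 3.

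The remaining members were low or at the floor. S100A14, an epithelial member, was measured at 14.6, 19.3 and 14.7 FPKM in the Vector libraries and at 12.4, 16.5 and 15.3 FPKM in the OE-MMP28 libraries, with a log2 fold change of -0.12 (SE 0.19, adjusted p = 0.675, edgeR). It was again highest in Vector replicate 2, and without that library the value was 0.017. S100A3, known from the hair cuticle, gave 3.77, 4.73 and 3.48 FPKM in the Vector libraries and 4.17, 2.97 and 3.42 FPKM in the OE-MMP28 libraries, a log2 fold change of -0.17 (SE 0.28, adjusted p = 0.706). The values of both genes overlapped between the groups. S100A3 lies within the span of S100A4 on the same strand but shares 0% of its exon length. S100A9, which pairs with S100A8 as calprotectin in myeloid cells, had 1 count in all, in OE-MMP28 replicate 2, and S100A8 had none. A count of 0 allows up to 3 counts per library as its limit. In the libraries other than OE-MMP28 replicate 2, S100A9 could thus have reached 0.180 to 0.220 CPM (counts scaled to library size) without being seen.

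Among the 11 other S100 genes, 3 passed the filter (S100A1, S100A5 and S100A10) and 0 passed the edgeR test, with 1 (S100A5) at an unadjusted p under 0.05. S100A5 was called by limma on log2(FPKM + 1), at 0.69 and an adjusted p of 0.0496, and DESeq2 and limma voom called none. The 3 genes had a median log2 fold change of 0.33. S100A5, known from olfactory neurons, was measured at 0.834, 1.13 and 1.82 FPKM in the Vector libraries and at 2.18, 2.49 and 3.18 FPKM in the OE-MMP28 libraries, with groups that did not overlap. Its log2 fold change of 1.06 was as large as that of S100A2 but less certain (SE 0.40, adjusted p = 0.0567, edgeR), and it was called at 1.43 without Vector replicate 3 (adjusted p = 0.0456). S100A1, best known from heart muscle, had a log2 fold change of 0.33 (SE 0.36, adjusted p = 0.549). S100A7A, S100A7L2, S100A8, S100A12, S100B and S100Z had a count of 0 in all 6 libraries, as did the 4 pseudogenes named after S100 genes, and S100A7 and S100G had at most 2 and 4 counts.

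The chromosome 1 genes stand close together. From S100A6 to S100A1, the genes followed in the order S100A6, S100A5, S100A4, S100A3, S100A2, S100A16, S100A14, S100A13 and S100A1. The called genes among them, S100A2, S100A16 and S100A13, all rose, and the other 6 did not pass the test. Of 190 other genes tested within 5 Mb of these members, 21 were higher and 24 lower in OE-MMP28 cells, with a median log2 fold change of 0.026. Within 1 Mb, 3 of 52 were higher and 5 lower, with a median of 0.017. Over all genes tested 11.7% were higher and 11.6% lower. Past S100A1, the next tested genes were CHTOP (0.24), SNAPIN (0.47), ILF2 (0.45), INTS3 (-0.27) and SLC27A3 (-0.58). Of these, only SNAPIN was called (adjusted p = 0.0495, edgeR). BX470102.1 beside S100A6 (0.82) and BX470102.2 between S100A2 and S100A16 (0.22) did not pass the test. The local median around S100P on chromosome 4 was 0.060 over 58 genes. With an offset for the local median within 5 Mb, S100A2, S100A16 and S100P kept their calls and S100A13 did not (0.42, adjusted p = 0.104).

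**Figure D3:**
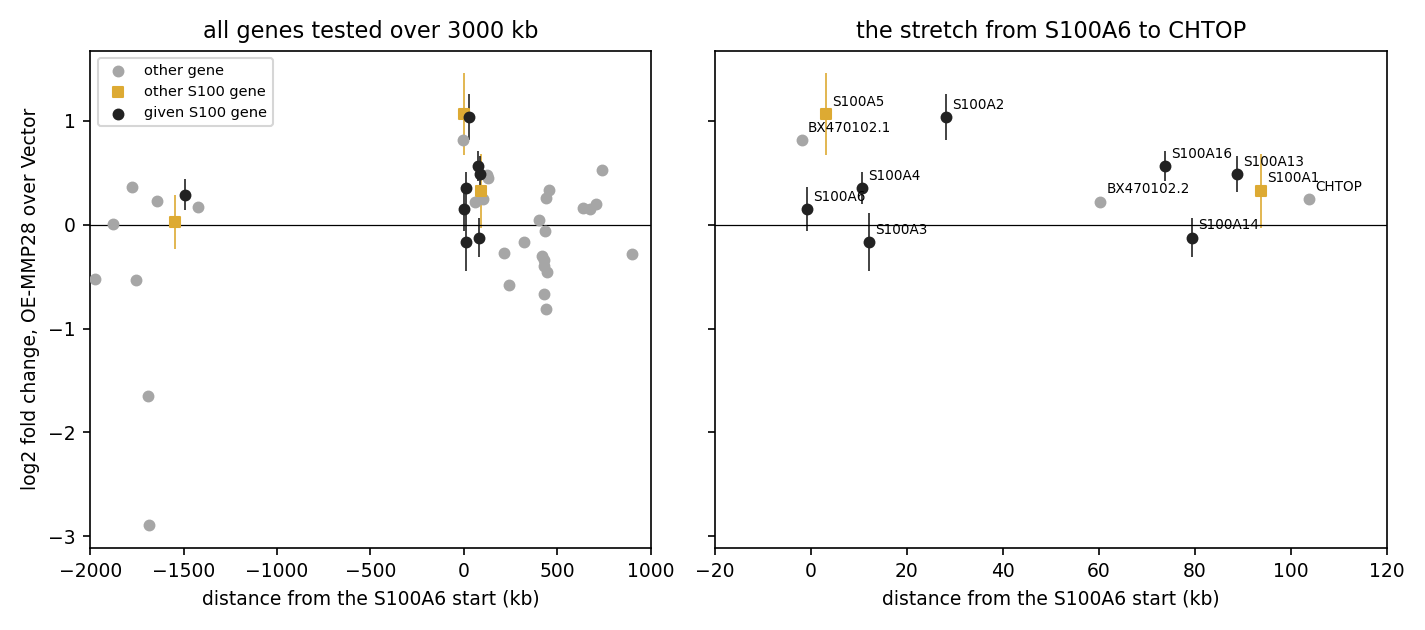
Log2 fold change of OE-MMP28 over Vector against the distance from the S100A6 start in kb, over a wide stretch that includes S100A11 (left) and over the S100 cluster (right), with standard errors for S100 genes. Given S100 genes are black circles, other S100 genes yellow squares and other genes grey. S100A2 at 1.04 and S100A5 at 1.06 lie highest among the S100 genes.

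The 10 genes together took 0.735%, 0.846% and 0.682% of the summed FPKM in the Vector libraries, whereas their share was 0.853%, 0.955% and 1.09% in the OE-MMP28 libraries. The means were 0.754% ± 0.0841 and 0.965% ± 0.117. The lowest OE-MMP28 value stood just above Vector replicate 2. Mitochondrial genes took 37.8% to 44.2% of the FPKM in the Vector group and 30.9% to 37.6% in the OE-MMP28 group. Outside the mitochondrial genome, a measure added after the data were seen, the share was 1.29% ± 0.160 in the Vector group and 1.49% ± 0.205 in the OE-MMP28 group, and the groups overlapped. As a share of counts it was 0.256% ± 0.0327 and 0.315% ± 0.0514, again with overlap.

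Among 28 partners and receptors of S100 proteins, 25 were tested, of which 3 rose (ANXA2, EZR and ANXA6), 1 fell (IL1A) and 21 did not pass the test. Over all genes tested 23.4% were called, so the 4 of 25 partners were no larger a share. The median log2 fold change was 0.12, and the FPKM values of 10 of the 25 did not overlap between the groups, near the 38.1% of all genes. FGF1, SYT1 and TP63 were too low to be tested.

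ANXA2, the annexin that pairs with S100A10 at the membrane, was measured at 111, 139 and 135 FPKM in the Vector libraries and at 186, 172 and 197 FPKM in the OE-MMP28 libraries. The groups were well apart, with a log2 fold change of 0.54 (SE 0.14, adjusted p = 0.0102, edgeR), which lost its call in limma without a filter (adjusted p = 0.0880) and with the 1 Mb local median (0.32, adjusted p = 0.131). ANXA2 thus passed the test where S100A10, with its split Vector values, did not, and the difference between these genes was not tested.

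EZR encodes ezrin, which links the membrane to actin and is activated by S100P. Its level was 256, 218 and 213 FPKM in the Vector libraries and 318, 300.4 and 306 FPKM in the OE-MMP28 libraries. All OE-MMP28 values stood higher, with a log2 fold change of 0.44 (SE 0.14, adjusted p = 0.0269, edgeR), while S100P was lower in the same group. A relation between EZR and S100P was not tested. The call was lost in 9 of 20 alternative fits, among them those without Vector replicate 2 (adjusted p = 0.0601), Vector replicate 3 (0.146), OE-MMP28 replicate 1 (0.0628), OE-MMP28 replicate 2 (0.0853) and OE-MMP28 replicate 3 (0.0534).

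ANXA6, another annexin that binds membranes, went from 4 summed counts in the Vector group to 99 in the OE-MMP28 group, a ratio of CPM of 22.1 (95% interval 8.36 to 82.7). Without Vector replicate 1 the ratio was 57.7 (10.1 to 2302), with 1 Vector count left, and without Vector replicate 3 it was 14.6 (5.54 to 54.8). IL1A, a cytokine that leaves the cell with S100A13, went the other way, from 60 summed counts to 16, and was 4.201-fold lower (95% interval 2.39 to 7.81). Both differences passed edgeR's test (adjusted p of 4.39e-05 for ANXA6 and 0.00441 for IL1A) but rest on low counts. The local median around IL1A was -0.32 within 5 Mb and -0.47 within 1 Mb. With these as offsets its log2 fold change went from -2.03 to -1.71 and -1.56, and it kept its call (adjusted p of 0.0188 and 0.0294, edgeR). IL1A was thus lower in the group in which S100A13 was higher, and a relation between these genes was not tested.

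The receptors did not pass the test. AGER, which encodes RAGE, had a mean of 2.03 ± 0.0962 FPKM in the Vector group and 1.64 ± 0.336 FPKM in the OE-MMP28 group (log2 fold change -0.29, adjusted p = 0.474, edgeR). TLR4, a receptor of calprotectin, was at 1.28 ± 0.117 and 1.47 ± 0.163 FPKM (0.21, adjusted p = 0.411). BSG, a receptor of S100A9, was far more abundant at 151 ± 17.8 and 163 ± 31.8 FPKM (0.12, adjusted p = 0.646), and its sign turned without OE-MMP28 replicate 3 and with the local-median offsets.

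**Figure D4:**
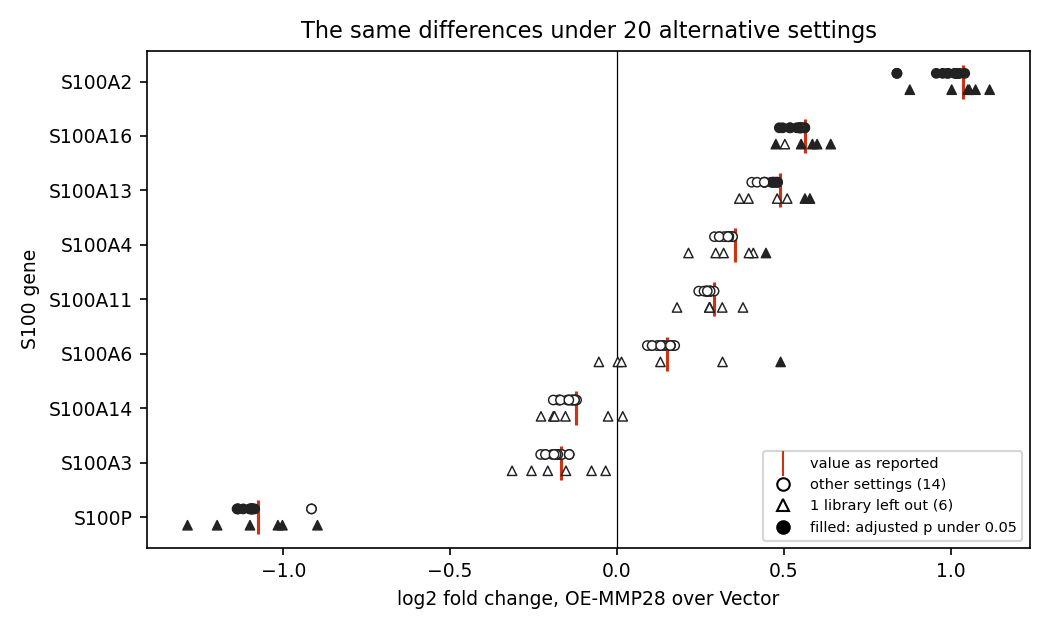
Log2 fold change of OE-MMP28 over Vector for 9 S100 genes as reported (red bar), in 14 other settings (circles) and with 1 library left out (triangles), filled where the adjusted p was under 0.05. S100A2 stays at 0.84 to 1.12 and filled throughout, S100P stays at -1.29 to -0.90, and S100A6 runs from -0.054 to 0.49.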

How the data were processed

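RNA of 6 AsPC-1 samples was sequenced, 3 Vector and 3 OE-MMP28. The submitters' processing notes name HISAT2 2.0.5 and featureCounts 1.5.0-p3. Neither the build nor the strand setting was given in the sources used here. The identifiers and coordinates of all 58735 genes were those of GENCODE 29 on GRCh38. The authors deposited 1 table with whole-number read counts per gene and library, not normalized, and FPKM values (fragments per kilobase, scaled to library size) which they computed. The deposited table also holds the authors' own comparison (group means, a log2 fold change, and raw and adjusted p-values), which was not used. All sample columns were matched to labels (0 unmatched).

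Groups and replicate numbers came from the labels. Counts were compared with the quasi-likelihood test of edgeR 4.0.16 in R 4.3.3 on all genes that passed filterByExpr (minimum count 10, minimum total 15), which left 15319. Scaling was by TMM, group was the only term, and the Benjamini-Hochberg adjustment ran over every gene tested. Levels between genes were compared in FPKM, with no pseudocount. A total of 13633249 to 16691458 counts per library set the precision, and 3 counts corresponded to 0.180 to 0.220 CPM. On simulated counts with mixed fold sizes, edgeR recovered 78.4% of 194 changed genes among 15276 tested, and 4.40% of its calls were false. The simulation held a far smaller share of changed genes than the 23.4% called in the data, and recovery was not split by fold size. These rates thus do not give the share of missed or false calls for the S100 genes.

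The study names limma, p under 0.05 and |log2 fold change| over 1. limma 3.58.1 on log2(FPKM + 1) and log2(FPKM + 0.1) (mean of at least 0.5 FPKM, or no filter), limma voom, DESeq2 1.42.0, other scalings and filters, protein-coding genes only, a gene length offset (smoothing span 0.3), an offset for the median of genes within 5 Mb, the replicate number as a block and the removal of each library were the alternatives, 20 fits in all. The offset for genes within 1 Mb, the share outside the mitochondrial genome and the ratios of summed counts with 1 library left out were added after the data were seen.

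Genes were named by a rule: all 10 members, MMP28, S100A10, ANXA2, other S100 genes that passed the filter, partners with an adjusted p under 0.05, AGER, TLR4, BSG, and pseudogenes or overlapping genes of a member. Partner genes are annexins, receptors and binding proteins of S100 proteins, 28 in all. The members and lists were chosen with earlier results of these data known. Promoter windows of 250 bases came from RefSeq on GRCh38.p14 (all 10 members matched), were searched with Python 3.11.15, and are printed without bases that GENCODE places in an untranslated region of the gene. Intervals on ratios of summed counts are exact (conditional binomial) and cover counting error only.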

Additional observations from a re-analysis of the deposited data

How the results depend on the processing

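S100A2 kept its direction and call in all 20 alternative fits, S100P and S100A16 kept theirs in 19 and 18, and S100A13 in 6, with adjusted p from 0.0222 to 0.219. S100A3, S100A4 and S100A11 kept their direction in all 20. All genes called higher numbered 1795, and 1009 with limma on log2(FPKM + 1), 1000 (log2 scale, pseudocount 0.1), 362 without a filter, 1137 with the 5 Mb local-median offset and 528 at the study's thresholds. For lower genes these were 1784, and 965, 970 and 308 with limma and 774 at the study's thresholds. The counts at the study's thresholds used edgeR p-values, and the study itself reported fewer genes. With 1 library left out, 985 to 1916 genes were higher and 1044 to 1949 lower (fewest without OE-MMP28 replicate 2), and 1 to 4 members were higher, with 1 without Vector replicate 3. limma without a filter called 1 member higher and 0 lower, where the other 19 fits each called 1 lower, and the study's thresholds left 1 higher. Reversed signs, all with an adjusted p over 0.4, were found for S100A6 (-0.054 without OE-MMP28 replicate 3) and S100A14 (0.017 without Vector replicate 2). The values without 1 library ran from -0.054 to 0.49 for S100A6, -0.23 to 0.017 for S100A14, -0.25 to 0.68 for S100A10 and -0.013 to 0.25 for BSG. S100A10 gave -0.027 with upper-quartile scaling, -0.00088 with a minimum of 1 CPM, -0.034 with the gene length offset, -0.0088 with the local-median offset, and -0.25, -0.18, -0.023 and -0.0057 without Vector replicates 1 and 3 and OE-MMP28 replicates 1 and 3. BSG gave -0.064 and -0.068 with the 5 Mb and 1 Mb local-median offsets and -0.013 without OE-MMP28 replicate 3. The share of the summed FPKM became 0.256% and 0.315% of counts, and 1.29% and 1.49% outside the mitochondrial genome. The causes were not tested. Libraries with the same replicate number did not deviate together (r = 0.0168, 0.00798 and -0.0876), and with the replicate block 1844 genes were higher and 1841 lower, with 3 members higher and 1 lower. S100A5 and the low genes rest on few counts, and S100A9 could not be tested at this depth.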
